A study of Mus musculus with 12 samples.

Results

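The Clca family (chloride channel accessory proteins) was followed in normal colon of ApcMin mice fed a diet low in methyl donors. Its members were chosen by gene symbol: every probe of the bead array whose annotated symbol begins with Clca, which gave 7 genes (8 probes) of 16593 named genes on the array. The family itself was selected on the diet contrast, because Clca4b was already known to be among the genes with the lowest values on the deficient diet. The differences between the diets below are therefore a description of these arrays, with no test of the members. Of the 7 genes, Clca1, Clca3b, Clca4a and Clca4b passed the filter on low signals (a detection p-value under 0.05 on at least 4 of 12 arrays). Clca2, Clca3a1 and Clca3a2 did not.

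All mice were of the strain ApcMin, which carries a mutant allele of the tumour suppressor gene Apc and forms intestinal polyps; no group with wild-type Apc was analysed here. The tested diet was deficient in methyl donors (8 arrays, labelled as 4 animals with 2 samples each) and its control diet was sufficient in them (4 arrays, labelled as 2 animals). Both were fed for 11 weeks, and colon without tumour was taken for RNA. The labels used here give neither age nor sex. Values are log2 signals after background correction and quantile normalisation, and a difference is deficient minus sufficient.

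Clca proteins are made in epithelia. They were first taken for calcium-activated chloride channels, and are now known as secreted or membrane-anchored proteins with a metalloprotease domain that can cleave themselves and change the activity of true channels such as Ano1. In the gut, Clca1 is packed into the mucus granules of goblet cells and helps to process the mucus layer, while Clca4a is known from the absorptive cells of the epithelium. Clca2 is best known from stratified epithelia and Clca3b from smooth muscle in mouse.

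The 7 genes lie side by side on chromosome 3 (GRCm38.p6, 144729677 to 145099443, a span of 370 kb). In the order of the coordinates they are Clca3a1, Clca3a2, Clca3b, Clca4b, Clca4a, Clca1 and Clca2. Clca4b (144910921 to 144932529) and Clca4a (144952486 to 144975045) are direct neighbours, 19956 bases apart. Clca3a2 and Clca3b are separated by only 2999 bases.

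Promoter windows run from 250 bases before to 50 after the start of a gene (RefSeq, GRCm38.p6). The windows of Clca4b and Clca3b are shown, because Clca4b had the lowest difference between the diets and Clca3b was the detected member whose values split the deficient arrays. Both lie on the minus strand, at chr3:144932480-144932779 for Clca4b and chr3:144849253-144849552 for Clca3b. Each is printed 5′ to 3′ in the direction of transcription. Capitals mark matches to TATAAA on the opposite strand in Clca4b, and to TGANTCA, a loose form of the AP-1 motif, in Clca3b. The N stands for any base, and the match in Clca3b has a T there.
Clca4b: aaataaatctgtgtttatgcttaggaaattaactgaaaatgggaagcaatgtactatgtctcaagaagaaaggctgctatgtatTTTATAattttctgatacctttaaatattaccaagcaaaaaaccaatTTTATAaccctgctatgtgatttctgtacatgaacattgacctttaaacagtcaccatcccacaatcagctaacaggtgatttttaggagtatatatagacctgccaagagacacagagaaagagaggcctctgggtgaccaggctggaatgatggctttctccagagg
Clca3b: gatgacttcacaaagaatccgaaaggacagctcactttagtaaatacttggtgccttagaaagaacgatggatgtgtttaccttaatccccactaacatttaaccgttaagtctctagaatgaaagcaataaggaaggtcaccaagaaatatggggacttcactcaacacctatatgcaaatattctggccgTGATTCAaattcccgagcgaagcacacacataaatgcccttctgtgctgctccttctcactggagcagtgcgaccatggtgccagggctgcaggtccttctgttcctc

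Motifs were searched on both strands. The TATA box was searched only as TATAAA, so other spellings of it were not covered. Those letters were present in 13.6% of all 32851 promoter windows of that length. The motif of CDX2, a factor of intestinal identity, was searched as TTTAT and was present in 40.0% of them. The STAT3 motif was searched as TTCNNNGAA (8.30%) and the motif bound by AP-1, a family of growth and stress factors, as given above (7.81%). The HNF4 motif was searched as CAAAGTCCA (0.475%) and that of the KLF factors as CACCC (57.5%). The Clca4b window held 4 matches to the CDX2 motif and 1 match to the KLF motif. Its 2 TATA box matches lie on the opposite strand, at positions -166 and -119 from the start. Of the CDX2 matches, 2 lie inside them, which the letters fix in advance because TTTATA contains TTTAT. The Clca3b window held 1 match to the CDX2 motif beside that to AP-1. The Clca2 window held 1 match to the STAT3 and 1 to the KLF motif, and that of Clca3a1 1 to the CDX2 and 1 to the KLF motif. A match is only a run of letters and shows no binding.

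The transcripts of sex split 4 of the 6 labelled animals between both sexes. Eif2s3y, a Y-linked gene, had log2 signals of 9.39 to 10.22 on 8 arrays and 4.47 to 4.56 on the other 4, and Xist, made from the inactive X chromosome, was high on exactly those 4 (6.87 to 7.42, against 4.84 to 5.06). Both samples of deficient animals 1 and 2 were male, while deficient animals 3 and 4 and both sufficient animals paired a male with a female sample. The SE of each difference is therefore given once with labelled animals and once with the arrays of a diet joined again by their sex (called sex-matched pairs here). The difference itself is the same in both. A labelled animal with samples of both sexes cannot be 1 mouse, and its mean averages out the spread between the sexes. The SDs, SEs and p-values with labelled animals can therefore be too small. Over all probes, the consensus correlation between samples of a labelled animal was -0.23. Tgm4, a prostate transglutaminase, was at 12.51 to 12.83 on both samples of deficient animal 2 and on the male sufficient arrays, and at 4.57 to 4.73 on the other 8. The p-values of list genes below measure the spread between these samples only. Of 10 colon epithelium markers, 8 passed the detection filter, among them Krt8, Krt20, Cdh17 and Vil1.

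Clca4b, the member with the lowest difference, was lower on all 8 deficient arrays than on any sufficient array. Its log2 signal had a lowest, median and highest value of 6.16, 6.60 and 7.28 on the deficient arrays. On the sufficient arrays it was 8.48 and 9.51 for animal 1 and 9.57 and 8.30 for animal 3. The deficient mean was 6.66 ± 0.12 (SD, n = 4 labelled animals) and the sufficient mean 8.96 ± 0.04 (SD, n = 2). Over sex-matched pairs the SDs were larger, at 0.38 (n = 4) and 0.81 (n = 2). The difference was -2.30, with an SE of 0.10 for labelled animals and 0.34 for sex-matched pairs. Only 8 of the 13497 probes that passed the filter had a lower difference. The raw signal, before any correction, averaged 133 on deficient arrays and 538 on sufficient arrays, or 24.8% of the sufficient level. In bulk tissue, fewer cells that make a transcript and less of it per cell cannot be told apart.

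Clca4b also varied with the sex of the sample, and not the same way in the 2 diets. On the deficient diet the male arrays, at 6.51 to 7.28, were all above the female arrays, at 6.16 and 6.28. On the sufficient diet the male arrays, at 8.48 and 8.30, were both below the female arrays, at 9.51 and 9.57. The diet difference was -3.32 among female arrays (2 deficient, 2 sufficient) and -1.58 among male arrays (6 and 2). Apart from the deficient males there is 1 pair per sex and diet, and whether the sexes differ in this respect was not tested. The male sufficient arrays are also those high in Tgm4.

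Clca4a, the neighbouring gene, was measured by 2 probes, and both were lower on every deficient array than on any sufficient array. The brighter probe had a lowest, median and highest log2 signal of 10.30, 11.01 and 11.64 on deficient arrays. On sufficient arrays it was 12.57 and 12.81 for animal 1 and 13.01 and 12.19 for animal 3. The means were 10.98 ± 0.43 (SD, n = 4 labelled animals) on the deficient and 12.64 ± 0.07 (SD, n = 2) on the sufficient diet, a difference of -1.66 (SE 0.24 with labelled animals, 0.31 with sex-matched pairs). Its raw signal averaged 2151 on deficient arrays and 6370 on sufficient arrays, or 33.8% of the sufficient level.

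The dimmer Clca4a probe had values of 5.20, 6.30 and 7.02 (lowest, median, highest) on deficient arrays, where it was detected on 7 of 8. On sufficient arrays it was 7.20 and 8.90 for animal 1 and 8.42 and 8.38 for animal 3. Its difference was -1.97 (SE 0.19 and 0.35), and its raw signal was at 32.4% of the sufficient level, close to the 33.8% of the brighter probe. Raw signals still hold background. The undetected Clca genes read 29.8 to 52.8, against a mean of 110 for the dimmer probe on deficient arrays. On that scale the probes gave nearly the same ratio, while the dimmer one had the lower log2 difference after background correction. Within the sufficient diet they ordered the arrays differently: the lowest array of the dimmer probe was sample 1 of animal 1, and that of the brighter probe was sample 2 of animal 3.

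**Figure D1:**
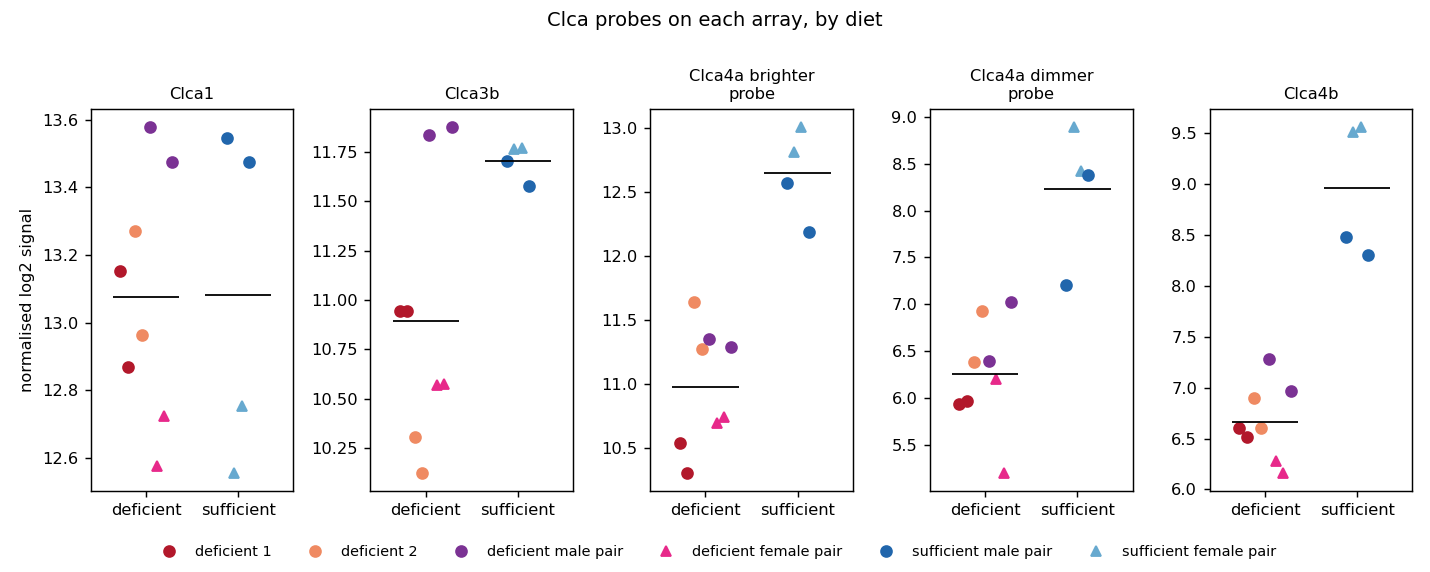
Normalised log2 signal (y axis, a scale of its own in each panel) of the 5 detected Clca probes on the 8 deficient and 4 sufficient arrays; circles are male and triangles female by their transcripts, colours are sex-matched pairs and lines are group means. Clca4b and both Clca4a probes separate the diets, the deficient male pair reaches sufficient levels in Clca3b, and Clca1 follows sex in both diets.

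Clca3b was lower on 6 of the 8 deficient arrays than on any sufficient array, and as high as in the controls on the other 2. Its log2 signal was 11.83 on sample 1 of deficient animal 3 and 11.88 on sample 2 of deficient animal 4, which together form the deficient male pair. The other 6 deficient arrays lay between 10.12 and 10.94, with both samples of animal 2 lowest (10.30 and 10.12). The sufficient arrays were at 11.71 and 11.77 for animal 1 and 11.77 and 11.58 for animal 3, a much narrower range. The means were 10.90 ± 0.47 (SD, n = 4 labelled animals) and 11.71 ± 0.04 (SD, n = 2), and the difference was -0.81 (SE 0.26 with labelled animals, 0.40 with sex-matched pairs). Without the deficient male pair it was -1.13.

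The deficient male pair also stood apart in markers of other tissue layers. The summed signal of the 8 measured smooth muscle markers (of 10, with Myh11 and Acta2 on the list) was 43040 and 41195 on that pair, 51334 to 59996 on the other deficient arrays, and 46369 to 48688 on the sufficient arrays. The 10 fibroblast markers summed to 14568 and 15139 on that pair, 20667 to 22614 on the other deficient arrays, and 13562 to 15985 on the sufficient arrays. Among the other 6 deficient arrays, animal 1 had the highest smooth muscle sums (59996 and 55501) and the highest Clca3b, at 10.94 and 10.94. Animal 2 had sums of 54549 and 51652 with the lowest Clca3b. The deficient female pair had sums of 51334 and 52984 with Clca3b between these, at 10.57 and 10.57. The part of tissue layers in the Clca3b values was not tested.

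Clca1, the goblet cell protein, had nearly the same mean on the deficient and sufficient diets. Its log2 signal had a lowest, median and highest value of 12.58, 13.06 and 13.58 on deficient arrays. On sufficient arrays it was 13.55 and 12.55 for animal 1 and 12.75 and 13.47 for animal 3. The means were 13.08 ± 0.05 (SD, n = 4 labelled animals) and 13.08 ± 0.04 (SD, n = 2), a difference of -0.01 (SE 0.08 with labelled animals, 0.29 with sex-matched pairs). Over sex-matched pairs the SDs were 0.36 (n = 4) and 0.61 (n = 2). The mean raw signal was 98.5% of the sufficient level. The SE of 0.29 over sex-matched pairs is not a limit of detection, and a Clca1 difference somewhat larger than that could also have been missed.

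The spread of Clca1 ran between the sexes instead. All 8 male arrays, at 12.87 to 13.58, were above all 4 female arrays, at 12.55 to 12.75. Among all probes that passed the filter, 0.763% had every male array above every female array. The female arrays of both diets were alike, with pair means of 12.65 on the deficient and 12.65 on the sufficient diet, and so were the deficient male pair and the sufficient male pair, at 13.53 and 13.51. Deficient animals 1 and 2, also male, lay between at 13.01 and 13.12. The sex of the samples is read from transcripts and each sex holds few mice, so this split is a description.

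Clca2, Clca3a1 and Clca3a2 were not detected on any of the 12 arrays. Their lowest detection p-values were 0.224, 0.630 and 0.736, and their raw signals stayed at 29.8 to 52.8. No fold change can be given for them. Keratinocyte markers, among which Clca2 would belong, were detected for 3 of 10 genes.

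Of the 4 detected Clca genes, 2 (Clca4a and Clca4b) were past the threshold in the fit with labelled animals (limma, Benjamini-Hochberg over all 13497 probes), where 5.51% of all probes were past it in the same direction. With sex-matched pairs 0 of the 4 passed, where 0.282% of all probes did in either direction. The same 2 genes had all deficient arrays below all sufficient arrays, which held for 3.06% of all probes. Since the diet contrast chose the family, nothing is read from these counts. The median difference of all probes was 0.01, and the 1st percentile was -0.93.

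**Figure D2:**
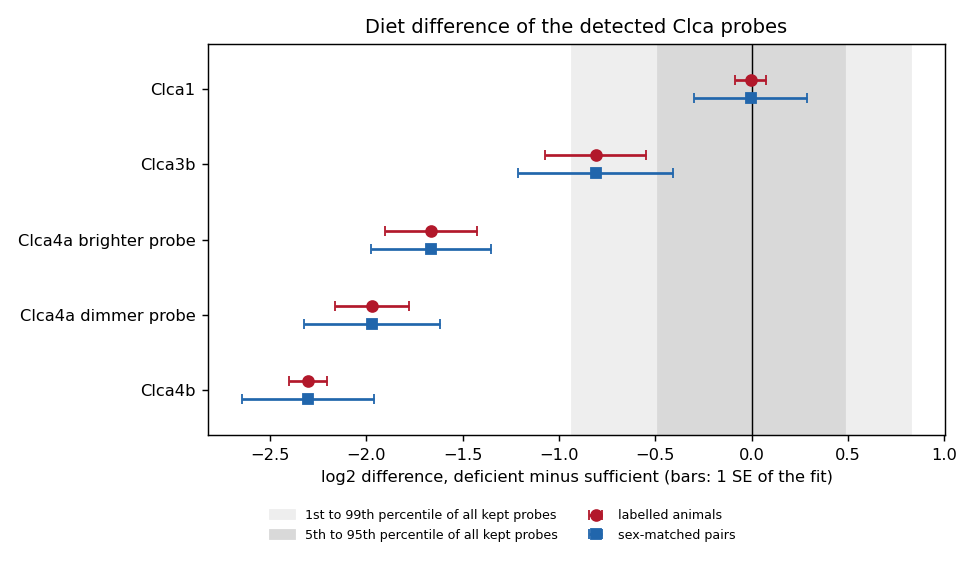
Log2 difference (deficient minus sufficient, x axis) of each detected Clca probe with 1 SE of the fit, over labelled animals (red) and sex-matched pairs (blue), on the range of all probes (grey). The difference runs from -0.01 for Clca1 to -2.30 for Clca4b, and the SE of Clca4b is 0.10 by labelled animal but 0.34 by sex-matched pair.

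The 8 measured epithelium markers (of 10) summed to 29921 to 37804 on deficient and 33607 to 38211 on sufficient arrays. Of the deficient arrays, 4 (both samples of animal 1 and the female pair, at 29921 to 30490) lay below every sufficient array. Both samples of animal 2 (36613 and 34498) and the male pair (37804 and 34626) lay within the sufficient range, with Clca4b at 6.90 and 6.60 and at 7.28 and 6.97. The mean log2 signal of the 8 markers differed by -0.12, and by -0.27 without Cdx2, the 1 marker with a positive difference. Relative to the mean of all 8, the difference was -2.19 for Clca4b, -1.55 for the brighter Clca4a probe, -0.69 for Clca3b and 0.11 for Clca1. Relative to the 7 without Cdx2 these values were -2.03, -1.39, -0.54 and 0.27.

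Immune cell markers differed by cell type. The 5 measured markers of B and plasma cells (of 8 listed) summed to 239 to 489 on deficient and 1109 to 1320 on sufficient arrays, and the 4 of T cells (of 8) to 163 to 251 and 262 to 324, so both separated the diets. The 5 of neutrophils (of 7) summed to 153 to 524 on deficient and 425 to 848 on sufficient arrays, and the 6 of macrophages (of 8) to 2839 to 5125 and 3885 to 4562, and both overlapped. The part of epithelium and immune cells in the Clca values was not tested.

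The genes flanking the cluster stood closer to 0 than Clca4a, Clca4b and Clca3b. Of the 3 annotated genes nearest on each side, 3 are on the array and 2 passed the filter. Sh3glb1, a membrane-curvature protein 9269 bases below the cluster, stood at -0.20 ± 0.12 (SE; adjusted p = 0.324 by limma, and 0.540 with sex-matched pairs). Col24a1, a collagen gene 193029 bases above it, stood at 0.14 ± 0.12 (adjusted p = 0.512 and 0.684). A p that misses the threshold does not show that these genes were equal in the diets.

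**Figure D3:**
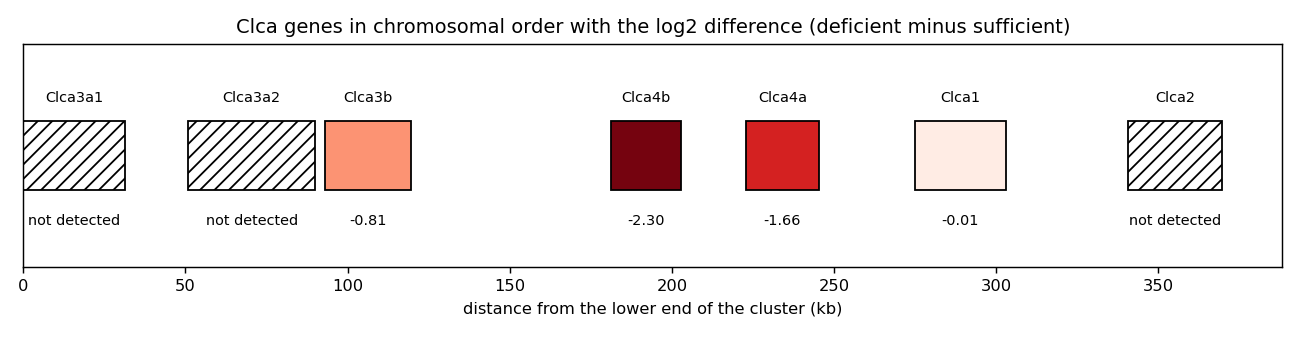
The 7 Clca genes as boxes by their distance in kb from the lower end of the cluster (x axis), each with its log2 difference (deficient minus sufficient, darker for a lower value; the brighter probe for Clca4a), and hatched where it was not detected. The 2 lowest values, -2.30 and -1.66, belong to the neighbours Clca4b and Clca4a.

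Within a diet, Clca4a and Clca4b also varied together over the arrays. After subtracting each diet's mean, Pearson's r over the 12 arrays was 0.70 between Clca4b and the brighter Clca4a probe, 0.60 between Clca4b and the dimmer one, and 0.50 between the 2 Clca4a probes. Clca4b and Clca3b had r = 0.46, Clca1 and Clca3b r = 0.45, and Clca1 and Clca4b r = -0.04. The arrays share mice and normalisation, so these are descriptions of 12 arrays that are not independent.

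The genes most like each member in that measure, picked as the highest of all named genes, differed between members. For Clca4b they were Cdca4 (r = 0.95), Slc25a24, a mitochondrial carrier (0.95), Dbf4, a regulator of replication origin firing (0.94), Acsl5, a fatty acid activating enzyme (0.93) and Cs, citrate synthase (0.93). Of these, Acsl5 had r = 0.00 with Clca4b when the diet means were left in. For the brighter Clca4a probe they were Sult2b1, a sterol sulfotransferase (0.93), Sfn, the epithelial 14-3-3 sigma protein (0.93), Ly6m (0.92), Cdkn1a, an inhibitor of the cell cycle (0.92), and Med8 (0.92). Sfn, Ly6m and Cdkn1a were lower on the deficient diet as well, at -1.06, -2.41 and -1.02, and had r of 0.90, 0.98 and 0.98 with diet means left in. The dimmer Clca4a probe was closest to Rpf2 (0.96), Psmd12 (0.95), Ube2f (0.94), Cox18 (0.94) and Klf4, a transcription factor of differentiated colonocytes and goblet cells (0.93), so the 2 Clca4a probes named no gene in common.

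For Clca3b the closest genes were Pml (0.99), Ddx58, a sensor of viral RNA (0.96), Parp12 (0.96), Nox1, the NADPH oxidase of colon epithelium (0.94), and Ifit2 (0.94). The deficient male pair weighs heavily in these r values. Its Clca3b signal was 11.83 and 11.88, against 10.12 to 10.94 on the other deficient arrays. Pml, Ddx58, Parp12 and Ifit2 are known as genes induced by interferon. With diet means left in, r was 0.94 for Nox1 and 0.82 for Parp12, and 0.24 to 0.39 for Pml, Ddx58 and Ifit2. The diet difference of Nox1 was -2.13. For Clca1 they were Tra2a, a splicing factor (0.96), Galnt10, an enzyme that starts O-glycans (0.92), Spink4, a goblet cell peptide (0.92), Trpm4, a cation channel activated by calcium (0.92), and Pxn (0.92).

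Goblet and mucus genes, the class to which Clca1 belongs, were partly lower on the deficient diet. Of 36 listed, 25 passed the filter and 6 fell past the threshold with labelled animals (5.51% of all probes were lower past it), 0 rose (5.30% of all probes), and 0 passed over the pairs joined by sex. Muc2 was not analysed here. Retnlb, an antibacterial protein of goblet cells, was at -2.48 ± 0.53 (SE; adjusted p = 0.0251 by limma, and 0.270 with sex-matched pairs) and was detected on 3 of 8 deficient arrays, Spink4 was at -0.84 ± 0.15 (adjusted p = 0.0128, and 0.369) and Galnt12, an enzyme of O-glycan synthesis, at -0.52 ± 0.10 (adjusted p = 0.0200, and 0.262). Other goblet genes stood closer to Clca1, with Tff3, the trefoil peptide of mucus, at -0.17, Zg16, a mucus lectin, at -0.22 and Agr2, a disulfide isomerase needed for mucin folding, at -0.14. The median of the 25 was -0.22.

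Surface colonocyte genes are the class of Clca4a. Of 32 listed, 22 passed the filter, of which 4 fell (5.51% of all probes did) and 2 rose (5.30% of all probes) by labelled animal, and 0 passed by sex-matched pair (0.282% of all probes); the median was -0.17. Aqp8, a water channel of surface colonocytes, had a mean of 11.13 ± 0.13 (SD, n = 4 labelled animals) on the deficient and 12.30 ± 0.02 (SD, n = 2) on the sufficient diet, a difference of -1.16 ± 0.10 (SE; adjusted p = 0.00124 by limma, and 0.109 with sex-matched pairs). Its deficient arrays, at 10.95 to 11.45, were all below the sufficient ones, at 11.74 to 12.88. Car4, a carbonic anhydrase, was at -0.73 ± 0.11 (adjusted p = 0.00775, and 0.264) and Nr1h4, the bile acid receptor, at -0.46 ± 0.10 (adjusted p = 0.0303, and 0.224). Slc26a3, the chloride and bicarbonate exchanger of the same cells, stood at 0.07 (adjusted p = 0.850 by limma) near background, detected on 5 of 8 deficient and 3 of 4 sufficient arrays.

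Chloride and anion transport genes include channels that Clca proteins can act on. Of 18 listed, 15 passed the filter, 1 fell (near the 5.51% of all probes) and 0 rose (5.30%) with labelled animals, 0 passed with sex-matched pairs, and the median was 0.08. Best2, a goblet cell bicarbonate channel activated by calcium, was at -0.68 ± 0.13 (adjusted p = 0.0190 by limma, and 0.231 with sex-matched pairs). Slc4a2 and Slc9a3r1, an anion exchanger and a scaffold of apical transporters, stood at 0.35 and 0.33 (adjusted p = 0.0678 and 0.0559). Ano1, the calcium-activated chloride channel, was at -0.26 (adjusted p = 0.0989) and Cftr, the cyclic AMP-activated one, at 0.10 (adjusted p = 0.707).

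Of 23 genes of the cytokine signals that act on mucus cells, 15 passed the filter and 1 fell with labelled animals, again near the 5.51% of all probes; 0 rose, and the median was -0.09. This was Socs3, an inhibitor of cytokine signalling through Stat3, at -2.15 ± 0.12 (SE; adjusted p = 0.000282 by limma), which was the 1 gene of the 6 pathway lists to pass with sex-matched pairs as well (adjusted p = 0.0280). Of the marker lists, the B and plasma cell genes Mzb1 and Pou2af1 also passed it (adjusted p = 0.0314 and 0.0277). Stat3 itself stood at -0.31 (adjusted p = 0.159) and Notch1, which restrains the goblet fate, at 0.34 (adjusted p = 0.0811). Of the 11 measured enterocyte transcription factors (of 16), 0 passed in either fit (5.51% of all probes fell and 5.30% rose with labelled animals); the median was -0.06. Among them Cdx2, a master regulator of intestinal identity, stood at 0.99 ± 0.50 (adjusted p = 0.235) with arrays from 7.55 to 10.88 on the deficient and 7.64 to 8.39 on the sufficient diet, Gata4 at 0.28 (adjusted p = 0.0728), and Klf4 at -0.22 (adjusted p = 0.201).

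Crypt base and proliferating cell genes, from the end of the crypt opposite to the surface, had 13 of 17 past the filter, of which 3 fell (5.51% of all probes did) and 1 rose (5.30%, so 1 of 13 is near that share) by labelled animal and 0 passed by sex-matched pair (median -0.07). Lgr5, the stem cell receptor, was at -1.15 ± 0.14 (adjusted p = 0.00432 by limma, and 0.0540 with sex-matched pairs) and was detected on 4 of 8 deficient arrays. Top2a and Cdk1, of the dividing cells, were at -0.74 ± 0.16 and -0.75 ± 0.14 (adjusted p = 0.0253 and 0.0161 by limma, but 0.374 and 0.469 with sex-matched pairs). The deficient arrays of Cdk1, at 7.28 to 7.79, lay within its sufficient range of 7.01 to 9.33. Of other genes on the list, Mcm2, Mcm5 and Pcna stood at 0.02, -0.07 and -0.44. Ascl2, another stem cell gene, was at 0.67 (adjusted p = 0.0279, and 0.186 with sex-matched pairs).

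**Figure D4:**
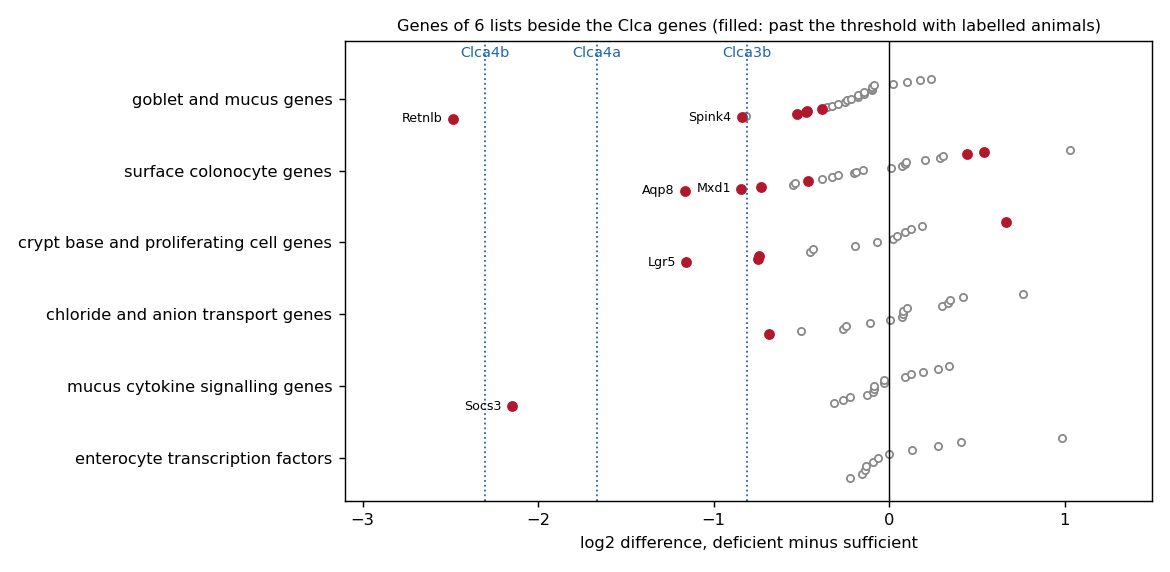
Log2 difference (deficient minus sufficient, x axis) of every measured gene of 6 lists, filled where it passed the threshold with labelled animals; dotted lines mark Clca3b, Clca4a (brighter probe) and Clca4b. Retnlb at -2.48 is the 1 gene of the lists below Clca4b.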

How the data were processed

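Total RNA of normal colon was amplified to biotinylated cRNA and hybridised to Illumina bead arrays, per the labels' protocols. The deposited scanner table gives per array a mean bead intensity and a detection p-value for 25697 probes, per the file headers. The authors' deposited matrix holds log2 values centred on each probe's median over the 12 arrays; how it was normalised before centring is not given in the sources used here. Its columns correlated best with their own arrays (0.957 or more, at most 0.737 with others), and their medians ran from -0.15 to 0.15.

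Intensities were corrected and quantile-normalised with neqc (offset 16; the negative control level was estimated out of the detection p-values) in limma 3.58.1 (R 4.3.3). Median raw signals were 59.4 to 71.5, and 12609 to 13241 probes per array had a detection p under 0.05. Probes detected on at least 4 of 12 arrays (13497) were kept. Precision is limited by the number of mice. Both arrays of a labelled animal were averaged and the 6 means fitted with lmFit and eBayes. The p-values were adjusted by Benjamini-Hochberg across the 13497 probes and called under 0.05. Sex-matched pairs were fitted the same way. The fit with labelled animals was also run on simulated data drawn with the spread of their means. That run cannot show whether this spread is too small. Probes were named by the platform annotation through Entrez ID in RefSeq's GRCm38.p6 table (23978 with 1 symbol, 1719 with none here). For list genes the brightest probe was used. Named are every Clca probe, 3 genes per list with the smallest p, 5 genes per member most like it, and 3 genes on each side of the cluster; other list genes given in the text were chosen after their values were seen. The family, its members and the lists were chosen with earlier results of these data known.

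Alternatives were other pairings and blocks, left-out animals, the authors' matrix, other background settings and other filters. Animals 1 and 3 occur in both diets, and their deviations from the diet means correlated at -0.06 and -0.05. Each sufficient animal averages a male and a female sample, so this check cannot show whether the numbers pair the diets. Probe sequences were not used here, so sharing of signal between related Clca genes was not tested. Promoter windows of 4 of the 7 genes are described, and those of the other 3 are not reported here.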

Additional observations from a re-analysis of the deposited data

How the results depend on the processing

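The difference of Clca4b, Clca4a and Clca3b was negative under every alternative run. Leaving out 1 unit gave -2.87 (sufficient male pair) to -1.73 (sufficient female pair) for Clca4b. Clca4b was -2.90 without the pairs high in Tgm4, -2.50 with the authors' matrix, -2.03 with no background correction, -1.98 with an offset of 50 and -2.19 relative to epithelium markers (-2.03 without Cdx2 among them), scalings chosen after seeing the data. Clca4a (brighter probe) was -2.09 without the pairs high in Tgm4 and -1.97 by its other probe. Clca1 had no stable direction: it was -0.18 with sex as a covariate, 0.41 without the pairs high in Tgm4, 0.11 relative to epithelium markers (0.27 without Cdx2), -0.43 when the sufficient female pair was left out, and 0.42 when the sufficient male pair was. Clca3b was -1.13 without the deficient male pair and -0.58 without deficient animal 2.

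The count of Clca genes past the threshold, 2 with labelled animals, was 0 with sex-matched pairs, 0 with sex as a covariate and 0 without the pairs high in Tgm4, and 0 to 3 with a unit left out (3, adding Clca3b, without the deficient male pair or without labelled deficient animal 2). Over all probes the count of 1460 became 38, 7 and 0 in these 3 fits, and 0 to 2060 with a unit left out (2060 without labelled deficient animal 2, 87 and 98 without sufficient animal 3 and 1, and, with sex-matched pairs, 351 without the deficient male pair and 0 without the sufficient or the deficient female pair). Where limma called 0, the probes at unadjusted p under 0.05 were 1712 in the fit without the pairs high in Tgm4, 1141 without the female pair of the sufficient diet and 1704 without that of the deficient diet. List genes past it, 18, became 1, 0 and 0, and 0 to 28 with a unit left out. They were 10 with the authors' matrix and 10 with no filter. With the animal number as a replicate block the counts were 638 probes and 9 list genes, and Clca4a and Clca4b passed. With 1 sufficient unit left, that unit is assumed to vary like the deficient ones. The causes were not tested. Dim probes such as the second Clca4a probe lie near background, which limits their log2 differences.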
